A study of Mus musculus with 2 samples.

Results

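*Zrsr1* and *Mcts2* are 2 retrogenes, intronless copies of other genes, that lie within introns of *Commd1* and *H13*, and these 4 genes were chosen as the retrogenes and the hosts that surround them. All 4 lie wholly inside the deposited stretches of signal, which hold 1718 of the 37310 genes annotated in GENCODE M1. RNA was measured in mouse embryo fibroblasts (MEFs), cultured from the carcass of female 13.5 dpc embryos, at early passage. The JXO cells had a JF1 mother and an OG2 father, and the OXJ cells had an OG2 mother and a JF1 father. OG2 mice carry an EGFP transgene under a *Pou5f1* promoter that is active in germ cells, so cells of both crosses inherited it from 1 parent, and JF1 is a *molossinus* inbred strain. There was 1 strand-specific, ribosomal RNA-depleted library per cross, so no difference between the crosses could be tested, and every interval below is a 95% interval for counting error only. Reads are not marked by allele in the tracks, and the parental origin of the RNA was not analysed here.

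Genomic imprinting is the expression of a gene from only 1 of the parental alleles. *Zrsr1* and *Mcts2* are known in the mouse as imprinted retrogenes that are transcribed from the paternal allele, each with a promoter region that is methylated on the maternal allele. Their parent genes, *Zrsr2* and *Mcts1*, are X-linked. *Zrsr2* encodes a protein of the minor spliceosome related to the small U2AF subunit, and *Mcts1* encodes a partner of DENR in translation reinitiation. *Commd1* encodes a copper metabolism domain protein of endosomal sorting and of the control of NF-kB, and *H13* encodes signal peptide peptidase, an intramembrane aspartyl protease of the endoplasmic reticulum. Alternative polyadenylation of *H13* on either side of *Mcts2* is known from mouse tissues to follow the parental allele, with the full-length transcript made from the maternal allele.

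Positions are those of mm9. *Zrsr1* (ENSMUSG00000044068.4) lies on chr11:22873215-22876498 on the (+) strand, in intron 1 of *Commd1* (ENSMUSG00000051355.11, chr11:22734744-22882382), which is transcribed from the (−) strand. *Zrsr1* and its host are therefore told apart by strand. *Mcts2* (ENSMUSG00000042814.6) lies on chr2:152512884-152513676 on the (+) strand, in intron 4 of *H13* (ENSMUSG00000019188.9, chr2:152495197-152534406), which is transcribed from the same strand. *Mcts2* and intronic RNA of its host are therefore not told apart by strand. *Commd1* and *H13* each have 7 annotated transcripts, and *Zrsr1* and *Mcts2* have 1 each with a single exon.

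The 250 bases before the RefSeq start of either retrogene are shown because the RNA signal of *Zrsr1* begins at that start. They were taken from RefSeq promoter windows of GRCm38.p6 and placed in mm9 by an exact match, at chr11:22871755-22872004 for *Zrsr1* and at chr2:152512634-152512883 for *Mcts2*. Capitals mark the dinucleotide CG, which reads the same on both strands.
*Zrsr1*: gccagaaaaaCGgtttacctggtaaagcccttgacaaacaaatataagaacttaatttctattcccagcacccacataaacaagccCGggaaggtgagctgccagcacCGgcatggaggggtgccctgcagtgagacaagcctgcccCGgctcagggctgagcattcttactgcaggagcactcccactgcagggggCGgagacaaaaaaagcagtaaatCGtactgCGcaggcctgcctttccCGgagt
*Mcts2*: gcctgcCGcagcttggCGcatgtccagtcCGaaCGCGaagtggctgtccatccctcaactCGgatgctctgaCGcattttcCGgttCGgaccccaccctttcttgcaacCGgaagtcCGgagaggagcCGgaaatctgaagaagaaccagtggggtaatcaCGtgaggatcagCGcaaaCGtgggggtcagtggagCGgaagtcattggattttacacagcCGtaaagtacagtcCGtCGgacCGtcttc
The stretch before *Mcts2* held 20 CG and that before *Zrsr1* held 8. In the whole window of 300 bases, *Mcts2* had 25 CG, a number reached by 18.4% of the 32851 RefSeq windows, and *Zrsr1* had 10, a number reached by 43.5%. The windows of the hosts lay between these values, with 21 CG for *H13* and 18 for the main start of *Commd1*. DNA methylation was not analysed here.

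Retrogenes can share reads with their parent genes, since reads were placed at up to 10 loci. The start of the coding sequence is shown for either pair, to show how far apart the partners are. Capitals mark bases that differ between the partners or that have no partner base in the alignment. The latter occur in *Zrsr2*, of which 135 bases are shown beside 120 of *Zrsr1*.
*Mcts2*: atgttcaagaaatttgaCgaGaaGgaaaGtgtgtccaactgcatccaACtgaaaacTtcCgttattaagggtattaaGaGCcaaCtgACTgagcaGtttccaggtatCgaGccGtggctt
*Mcts1*: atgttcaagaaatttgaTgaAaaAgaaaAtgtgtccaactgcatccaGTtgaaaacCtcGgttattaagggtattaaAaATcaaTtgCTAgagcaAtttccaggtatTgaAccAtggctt
*Zrsr1*: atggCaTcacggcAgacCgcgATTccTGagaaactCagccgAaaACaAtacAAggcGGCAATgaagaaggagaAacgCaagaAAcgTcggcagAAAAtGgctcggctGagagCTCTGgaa
*Zrsr2*: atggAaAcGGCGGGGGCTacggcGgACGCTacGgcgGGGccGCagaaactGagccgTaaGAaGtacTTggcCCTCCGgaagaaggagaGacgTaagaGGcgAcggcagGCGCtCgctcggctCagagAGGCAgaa
The coding sequences of *Mcts2* and *Mcts1* have 546 bases each and were identical at 85.2% of positions, with 10 to 23 differences in any 100 bases, the length of a read. *Zrsr1* and *Zrsr2* were identical at 79.4% of 1282 aligned coding positions, with at least 7 differences in any 100 bases. With up to 2 mismatches allowed, 0 of 3185 windows of 100 bases of *Zrsr1* and 21 of 694 windows of *Mcts2* (3.03%) matched another place in mm9. The place that matched *Mcts2* was on chromosome 15, not at *Mcts1*.

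RNA of *Zrsr1* was found on its own strand in both crosses. Its level was taken as mean scaled depth, the count of reads that overlap a base after the aligned total of the library was set to 50000000. On this scale a single read in JXO counts 0.652 and one in OXJ counts 0.579. Over the annotated gene, *Zrsr1* had 4.76 (3.95 to 5.70) in JXO and 3.88 (3.19 to 4.67) in OXJ on the (+) strand. The (−) strand of the same bases, which is that of *Commd1*, had 0.496 (0.260 to 0.857) in JXO and 0.519 (0.289 to 0.860) in OXJ. The share of read pairs on the strand of *Zrsr1* was 90.6% (Clopper-Pearson interval 84.3 to 94.95%) in JXO and 88.2% (81.2 to 93.3%) in OXJ. Among 610 protein-coding genes inside the stretches with at least 20 read pairs over both libraries, 98.2% were higher on their annotated strand in either cross, with a median share of 97.0% in JXO and 96.2% in OXJ.

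The signal of *Zrsr1* did not cover the annotated gene evenly. The coding sequence, chr11:22873228-22874511, had 9.53 in JXO and 8.11 in OXJ, with every base covered. The 1987 bases after it had 1.71 in JXO and 1.16 in OXJ, and 27.1% of these bases in JXO and 43.6% in OXJ were covered. The signal instead began before the annotated start. Covered bases of the (+) strand, joined over gaps of up to 200 bases, formed a stretch of 3032 bases in JXO, which began 1181 bases before the annotated start. In OXJ the stretch had 2898 bases and began 1207 bases before it, 3 bases from the RefSeq start at position 22872005, which lies 1210 bases before the GENCODE start. The stretch ended 554 bases after the coding sequence in JXO and 394 bases after it in OXJ. It was short of the annotated end by 1433 bases in JXO and by 1593 bases in OXJ.

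**Figure D1:**
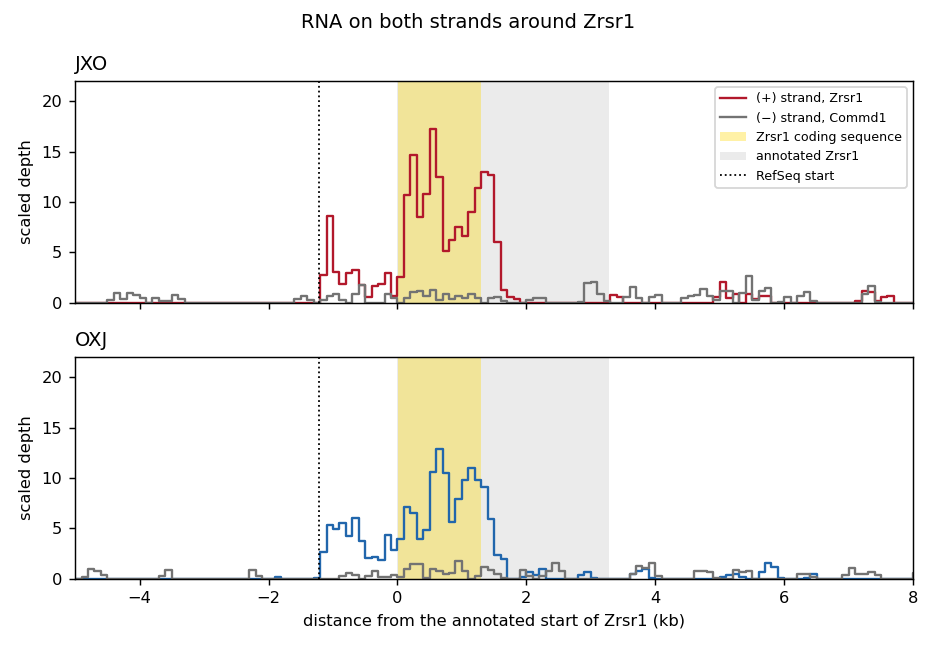
Mean scaled depth in bins of 100 bases on the (+) strand (coloured) and the (−) strand (grey) against the distance from the annotated start of *Zrsr1* in kb, JXO above and OXJ below. The (+) strand signal starts at the RefSeq start (dotted) in both crosses and covers the coding sequence (yellow), while most of the annotated gene after it (light grey) has little signal on either strand.

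The canonical polyadenylation hexamer AATAAA, searched on the transcribed strand only, occurs in the annotated *Zrsr1* 94 and 824 bases after the end of the coding sequence. The 200 bases that follow a point 15 bases past the first of these had 8.68 in JXO and 3.91 in OXJ, and the 200 bases before that point had 12.4 in JXO and 9.34 in OXJ. The ratio after over before was 0.70 (0.32 to 1.49) in JXO and 0.42 (0.14 to 1.08) in OXJ, so that a step at this hexamer was not detectable at this depth. In the 1 kb after the annotated end the (+) strand had 0.130 in JXO and 0.232 in OXJ, less than 1 read on average.

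RNA of *Mcts2* was also found on its own strand, where its mean stood above that of the intron on either side. *Mcts2* had 27.9 (23.8 to 32.4) in JXO and 18.6 (15.5 to 22.1) in OXJ over the annotated gene, and every base was covered. The share of read pairs on its strand was 94.7% (90.3 to 97.5%) in JXO and 97.7% (93.4 to 99.5%) in OXJ. The opposite strand had 1.56 (0.732 to 2.92) in JXO and 0.442 (0.0922 to 1.29) in OXJ, with overlapping intervals. The coding sequence, chr2:152513007-152513549, had 31.6 in JXO and 21.97 in OXJ, and the 127 bases after it had 15.4 in JXO and 10.6 in OXJ. Over the 673 bases of *Mcts2* that lie in no window with a match elsewhere the level was 27.6 in JXO and 17.1 in OXJ, within the intervals of the whole gene.

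The annotated end of *Mcts2* coincided with a step in depth. The 200 bases after the end had 5.51 in JXO and 3.77 in OXJ, and the 200 bases before the end had 21.8 in JXO and 17.2 in OXJ. The ratio after over before was 0.25 (0.10 to 0.55) in JXO and 0.22 (0.078 to 0.52) in OXJ. At the start, the rise was smaller. *Mcts2* had 27.9 in JXO and 18.6 in OXJ, against 12.9 (9.36 to 17.3) in JXO and 8.23 (5.62 to 11.6) in OXJ for the 446 bases of the intron just before it, and these intervals do not overlap in either cross. How much of the signal over *Mcts2* came from intronic RNA of *H13* was not tested.

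**Figure D2:**
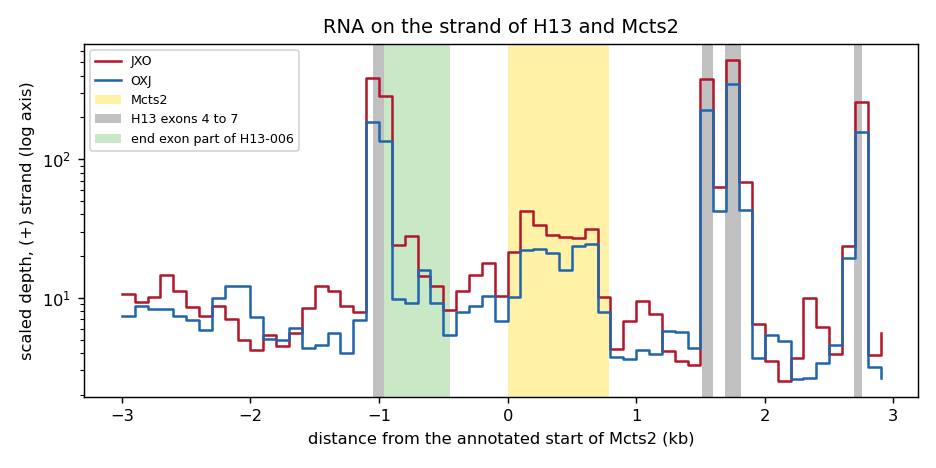
Mean scaled depth on the (+) strand in bins of 100 bases (log axis) against the distance from the annotated start of *Mcts2* in kb, for JXO and OXJ. *Mcts2* (yellow) is higher on average than the intron of *H13* on either side and far below exons 4 to 7 of *H13* (grey), single bins in the end exon of H13-006 reach 27.9 in JXO and 15.9 in OXJ, levels of single bins of *Mcts2*, and the intron signal is lower after *Mcts2* than before it in both crosses.

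The last 30 bases of 3 annotated transcripts in this region are shown because each holds a polyadenylation hexamer, AATAAA or its variant ATTAAA, in capitals. H13-005 ends in intron 3 of *H13*, at chr2:152509148-152509177. H13-006 ends in intron 4, before *Mcts2*, at chr2:152512408-152512437, and *Mcts2* ends at chr2:152513647-152513676.
H13-005: tgttgatccaaaaATTAAActgactcttac
H13-006: tctttgccgAATAAAtaattattggatttt
*Mcts2*: ttatgctgAATAAAttcaacaaataccttt
One of these hexamers lies in the last 40 bases of 33.2% of 13546 annotated transcript ends of protein-coding genes on chromosomes 2 and 11, searched on the transcribed strand. The end of the highly covered part of *Commd1*, that of Commd1-001, also has AATAAA, 14 bases before it. The ends of H13-201, H13-001 and Commd1-003 have neither hexamer within 40 bases.

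*H13* exons were covered at high levels on both sides of *Mcts2*. Levels of exons are given over their coding part, since the annotated 3′ ends hold long stretches with little signal. The 8 coding exons after *Mcts2* (exons 5 to 12 of H13-001) had between 404 and 681 in JXO and between 254 and 437 in OXJ. The 4 coding exons before it had between 326 and 736 in JXO and between 307 and 343 in OXJ. Pooled over bases, coding exons after *Mcts2* had 516 (497 to 536) in JXO and 318 (304 to 333) in OXJ, and those before it had 507 (484 to 531) in JXO and 322 (305 to 341) in OXJ. The ratio after over before was 1.02 (0.96 to 1.08) in JXO and 0.99 (0.92 to 1.06) in OXJ. The pooled sides thus differed by less than the counting error in the coding exons of either cross. The pooled value before *Mcts2* includes exon 1, with 183 of the 454 bases and the lowest level of the 4 exons. It had 326 in JXO, where the next exon had 521, and 307 in OXJ, where the next had 325. In JXO, exons 3 and 4 had 644 (583 to 710) and 736 (673 to 803), above the interval of the pooled value after *Mcts2*. Exon 2 of JXO, with 471 to 575, overlapped it. In OXJ, the intervals of exons 2, 3 and 4 all overlapped that of the pooled value after *Mcts2*. A ratio without exon 1 was not computed. All annotated exon bases include the long 3′ ends. Before *Mcts2* they also include thinly covered end parts of H13-005 (2308 bases) and H13-006 (515 bases). Over all annotated exon bases the ratio was 1.09 (1.04 to 1.15) in JXO and 1.10 (1.03 to 1.17) in OXJ. That value depends on which bases are counted, since with the exons of the longest coding transcript it was 0.27 in both crosses and with coding bases it lay at 1, as above.

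Exon by exon, the drop from exon 4 to exon 5, between which *Mcts2* lies, stood out in JXO. Exon 5 had 447 (398 to 501) in JXO and 268 (232 to 308) in OXJ. Exon 4 had 736 (673 to 803) in JXO and 343 (303 to 387) in OXJ. Exon 5 over exon 4 was 0.61 (0.52 to 0.70) in JXO and 0.78 (0.65 to 0.94) in OXJ, and the intervals of the crosses overlap. These intervals treat the exons as independent, though a spliced read pair can cover both, so they are approximate. Among 2607 pairs of neighbouring inner coding exons of 316 genes, the median was 1.01 in either cross. A ratio as low as that of *H13* or lower was found in 3.41% of the pairs in JXO and in 14.2% in OXJ. The later exon was at least 1.5 times lower in 5.91% of all pairs in JXO and in 5.41% in OXJ, and the step from exon 4 to exon 5 of *H13* passed that fold in JXO only. The difference between the crosses was not tested.

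Exon 1 of *H13* differed less between the crosses than the other exons did. Its coding part had 326 (297 to 358) in JXO and 307 (280 to 336) in OXJ, with a log2 ratio of JXO over OXJ of 0.09. Exon 4 had the highest log2 ratio, 1.10 (0.88 to 1.32), and exons 5 to 12 had between 0.59 and 0.79. Between exons 1 and 4 the level in JXO was higher at each later exon, while the 4 exons of OXJ have overlapping intervals. The next values count all annotated exon bases, not the coding parts alone. The log2 ratio of exon 1 was lower than that of the other exons by 0.55 in *H13* and by a median of 0.32 over 258 protein-coding genes. A value as low as that of *H13* or lower was found in 59 of the 258 genes. In *Commd1* exon 1 was lower by 0.27, with an exon shared with the gene *B3gnt2* counted among the other exons. The value of *Commd1* without that shared exon was not computed.

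**Figure D3:**
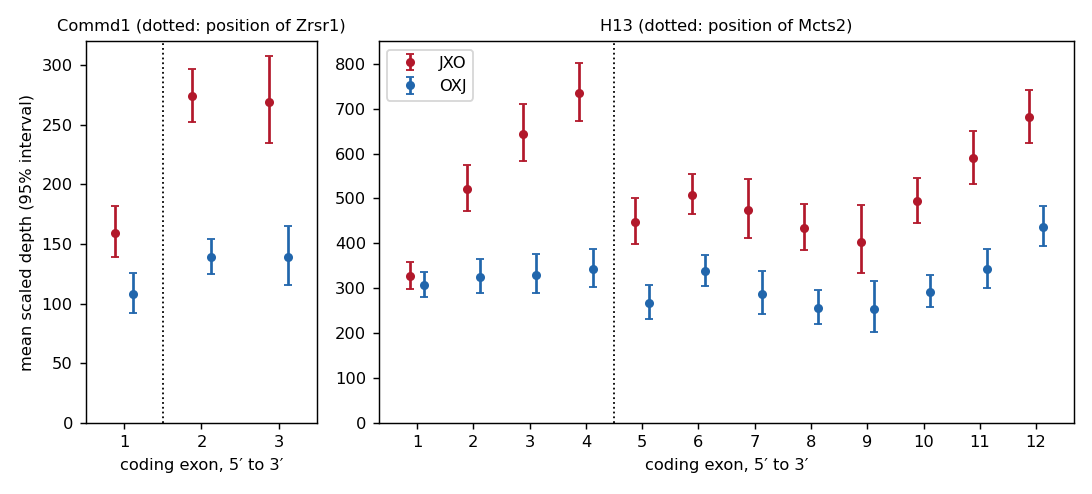
Mean scaled depth of the coding part of each exon of *Commd1* (left) and *H13* (right) from 5′ to 3′, for JXO and OXJ, with exact Poisson 95% intervals. The dotted line marks the position of the retrogene, after which *Commd1* exons are higher in both crosses and exon 5 of *H13* is lower than exon 4.

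The introns of *H13* differed between the sides of *Mcts2* where its coding exons, pooled over bases with exon 1 included, did not. Outside all annotated exons, the 15.1 kb of intron after *Mcts2* had 1.60 (1.38 to 1.85) in JXO and 1.53 (1.33 to 1.76) in OXJ. The 14.3 kb of intron before it had 6.95 (6.47 to 7.47) in JXO and 5.58 (5.17 to 6.01) in OXJ. The ratio after over before was 0.23 (0.20 to 0.27) in JXO and 0.28 (0.23 to 0.32) in OXJ. Within 5 kb on either side of *Mcts2* it was 0.28 in JXO and 0.35 in OXJ. To see how often introns differ along a gene, 351 protein-coding genes were split at the same 46.1% of their length, and the median ratio was 1.10 in JXO and 1.05 in OXJ. The introns of *H13* had a lower ratio than all but 18 of these genes in JXO and all but 20 in OXJ. *Commd1* was among the genes with a lower ratio than *H13*, at 0.16 in JXO and 0.19 in OXJ. It was split there by its length and not at *Zrsr1*. In 19.7% of the genes the introns were at least 1.5 times lower after the split in both crosses.

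The drop was not at a single point. Intron 1 had 7.32 in JXO and 6.05 in OXJ, and intron 2 had 3.58 in JXO and 2.55 in OXJ. In intron 3, the 2308 bases that belong to the end exon of H13-005 had 16.6 (14.8 to 18.6) in JXO and 12.6 (11.1 to 14.3) in OXJ, and the rest of the intron had 9.24 in JXO and 7.62 in OXJ. In intron 4, the 515 bases of the end exon of H13-006 had 18.5 (14.5 to 23.3) in JXO and 10.8 (7.95 to 14.3) in OXJ. The 722 bases from the end of *Mcts2* to exon 5 had 5.60 (3.801 to 7.94) in JXO and 4.47 (2.97 to 6.47) in OXJ, below the 446 bases before *Mcts2* in JXO, while the intervals overlap in OXJ. Intron 6 had 5.13 in JXO and 4.21 in OXJ. Introns 7 to 10 had between 0.629 and 1.501 in JXO and between 0.963 and 2.47 in OXJ. Thus the intron signal was highest in introns 3 and 4, next to the ends of H13-005 and H13-006, and lowest from intron 7 on.

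**Figure D4:**
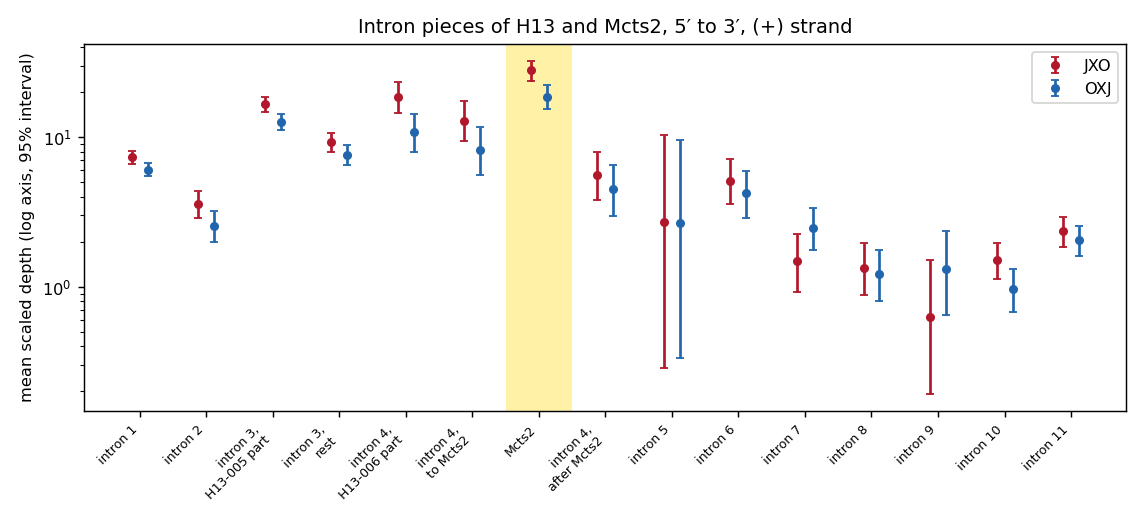
Mean scaled depth (log axis) of the intron pieces of *H13* in the order of transcription and of *Mcts2* (yellow), for JXO and OXJ, with exact Poisson 95% intervals. The pieces before *Mcts2* have 3.58 to 18.5 in JXO and 2.55 to 12.6 in OXJ, and introns 7 to 10 have at most 1.501 in JXO and 2.47 in OXJ, where intron 11 includes the extra exon of H13-002.

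A step at either short end of *H13* was not detectable at this depth. The 200 bases after the end of H13-005 over the 200 bases before it gave 0.71 (0.35 to 1.39) in JXO and 0.67 (0.30 to 1.47) in OXJ. For H13-006 the ratio was 0.96 (0.47 to 1.96) in JXO and 0.80 (0.36 to 1.75) in OXJ. The extensions of exons 3 and 4 in these transcripts stood far below the coding exons they continue, which had 644 in JXO and 330 in OXJ for exon 3 and the values above for exon 4.

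Most of the depth over the last exon of *H13* lay before the end of H13-201, far short of the end of H13-001. The last exon up to the end of H13-201 had 399 in JXO and 276 in OXJ, and the 3619 bases beyond had 17.3 (15.8 to 19.0) in JXO and 14.0 (12.7 to 15.4) in OXJ, where 99.01% of the bases were covered in JXO and 99.2% in OXJ. The extra exon of H13-002 in intron 11 had 36.9 (27.9 to 47.9) in JXO and 27.2 (19.9 to 36.1) in OXJ, and the extension of exon 10 in H13-004 had 1.06 in JXO and 0.762 in OXJ, the level of an intron. The long non-coding gene *Gm17559*, annotated on the opposite strand over exon 10 of *H13*, had 0.578 in JXO and 1.38 in OXJ.

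In *Commd1*, exons after *Zrsr1* were higher than the exon before it. The coding part of exon 2 had 274 (252 to 297) in JXO and 139 (125 to 155) in OXJ, and that of exon 3 had 269 (235 to 308) in JXO and 139 (116 to 165) in OXJ. Exon 1, the only coding exon before *Zrsr1*, had 159 (139 to 182) in JXO and 108 (92.3 to 126) in OXJ. Coding bases after over before gave 1.71 (1.47 to 2.00) in JXO and 1.28 (1.07 to 1.54) in OXJ. With exon 1 alone on that side, the position of *Zrsr1* cannot be told apart from that of a first exon. In *H13*, with no retrogene between them, exon 2 over exon 1 was 1.60 (1.39 to 1.83) in JXO and 1.06 (0.91 to 1.23) in OXJ. Over all annotated exon bases of *Commd1* that belong to no other gene, the ratio after over before was 0.99 (0.85 to 1.15) in JXO and 0.76 (0.64 to 0.91) in OXJ. Thinly covered bases enter on both sides. Before *Zrsr1*, 680 of the 984 bases are exon 1 of Commd1-001, with 1.11 in JXO and 0.341 in OXJ. After it, exon 3 is annotated with 3922 bases. The 294 bases of exon 3 up to the end of Commd1-001 had 198 in JXO and 106 in OXJ, and the 3628 bases beyond had 0.845 in JXO and 0.332 in OXJ. The direction of the ratio in OXJ therefore depends on which bases are counted.

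Other annotated starts and ends of *Commd1* had little signal. Exon 1 of Commd1-001 had 1.11 (0.400 to 2.45) in JXO and 0.341 (0.0412 to 1.23) in OXJ, and the exon of Commd1-001 that lies antisense inside *Zrsr1* had 0.626 in JXO and 0.539 in OXJ on the strand of *Commd1*, about 1 read pair each. Exon 1 of Commd1-006, which lies between the RefSeq and the GENCODE start of *Zrsr1* on the opposite strand, had 0.374 in JXO and 0.285 in OXJ. The last exon of Commd1-002 had 10.4 (4.02 to 22.1) in JXO and 3.89 (0.717 to 11.9) in OXJ. The last exon of Commd1-004 coincides with an exon of *B3gnt2*, a glycosyltransferase gene of the same strand. Its 74.1 in JXO and 44.5 in OXJ cannot be told apart from *B3gnt2*. This exon was therefore left out of *Commd1*, except in the comparison of exon 1 with the other exons above and where stated below.

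Introns of *Commd1* were near the limit of detection on both sides of *Zrsr1*. Outside all annotated exons, the 72.3 kb after *Zrsr1* had 0.335 (0.289 to 0.387) in JXO and 0.286 (0.245 to 0.331) in OXJ, and the 4.90 kb before it had 0.339 (0.179 to 0.582) in JXO and 0.308 (0.164 to 0.526) in OXJ. The ratio after over before was 0.99 (0.56 to 1.91) in JXO and 0.93 (0.53 to 1.77) in OXJ. A difference between the sides was not detectable at this depth, since the side before *Zrsr1* held 12.7 read pairs in JXO and 13.04 in OXJ.

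Set beside their hosts, both retrogenes were the lower partner per base. *Zrsr1* over the exons of *Commd1* was 0.17 (0.14 to 0.20) in JXO and 0.25 (0.20 to 0.31) in OXJ. *Mcts2* over the exons of *H13* was 0.31 (0.26 to 0.36) in JXO and 0.31 (0.26 to 0.37) in OXJ. These ratios use all annotated exon bases, and the hosts have long, thinly covered 3′ ends. On the geometric scale, which gives weight to thinly covered bases, the direction turned, with *Zrsr1* over *Commd1* at 1.03 in JXO and 1.59 in OXJ, and *Mcts2* over *H13* stood at 1.10 in JXO and 0.96 in OXJ. Over coding bases alone, *Zrsr1* had 9.53 in JXO and 8.11 in OXJ, against 237 in JXO and 129 in OXJ for *Commd1*. *Mcts2* had 31.6 in JXO and 21.97 in OXJ, against 513 in JXO and 320 in OXJ for *H13*. In the order of level over exons, *H13* stood first with 90.3 in JXO and 59.8 in OXJ, and *Zrsr1* last. *Commd1*, with 28.5 (27.0 to 30.1) in JXO and 15.4 (14.4 to 16.6) in OXJ, and *Mcts2* lay between them with overlapping intervals in either cross. Among the 610 protein-coding genes the median level was 19.0 in JXO and 13.9 in OXJ, below *Mcts2* and above *Zrsr1* in both crosses.

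*Zrsr1* was also lower than its parent gene. *Zrsr2* had 20.9 (19.7 to 22.1) in JXO and 14.0 (13.1 to 14.98) in OXJ over its exons, and *Zrsr1* over *Zrsr2* was 0.23 (0.19 to 0.28) in JXO and 0.28 (0.22 to 0.34) in OXJ. Over coding bases *Zrsr1* had 9.53 in JXO and 8.11 in OXJ, against 46.9 in JXO and 31.4 in OXJ for *Zrsr2*. *Mcts1* lies outside the deposited stretches and was not analysed here.

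Of other nested genes, the imprinted *Nnat* in *Blcap* and the imprinted retrogene *Nap1l5* in *Herc3* lie inside the stretches. *Nnat* over *Blcap* was 0.51 in JXO and 0.41 in OXJ, and *Nap1l5* over *Herc3* was 0.18 in JXO and 0.23 in OXJ, per base of annotated exons. The ratios of *Zrsr1* and *Mcts2* to their hosts lay between or next to these values. *Nap1l5* had 3.34 in JXO and 2.62 in OXJ, close to the level of *Zrsr1*, and *Nnat* had 30.4 in JXO and 16.4 in OXJ, close to that of *Mcts2*. The further hosts of imprinted nested transcripts, *Inpp5f* with 17.3 in JXO and 8.86 in OXJ and *Trappc9* with 1.91 in JXO and 2.21 in OXJ, were measured without their nested transcript.

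The ratio between the crosses was read against the whole of the tracks, because the median 10 kb bin was 1.33 times higher in JXO than in OXJ (0.41 on the log2 scale) at equal aligned totals. *Commd1* was 1.85 (1.69 to 2.02) times as high in JXO as in OXJ, *H13* 1.51 (1.45 to 1.57) times, *Mcts2* 1.498 (1.18 to 1.901) times and *Zrsr1* 1.23 (0.94 to 1.61) times. A ratio of at least 1.5 in favour of JXO was reached by 2 of the 4 genes and by 39.1% of 717 genes with at least 20 read pairs. With the median bin set equal, it was reached by 0 of the 4 genes and by 8.79% of the genes. The ratios were then 1.39 (1.27 to 1.52) for *Commd1*, 1.14 (1.09 to 1.18) for *H13*, 1.13 (0.89 to 1.43) for *Mcts2* and 0.92 (0.71 to 1.21) for *Zrsr1*. These values cover the annotated *Zrsr1*, which leaves out the RNA before its start. The 1 kb before the annotated start had 2.06 (1.18 to 3.36) in JXO and 3.78 (2.60 to 5.32) in OXJ, the higher level being in OXJ, with overlapping intervals. Over the 3058 bases covered in either cross, chr11:22872008-22875065, *Zrsr1* had 6.16 (5.20 to 7.25) in JXO and 5.55 (4.68 to 6.52) in OXJ, a ratio of 1.11 (0.88 to 1.41), or 0.83 (0.66 to 1.06) with the median bin set equal. *Mcts2* and *H13* did not differ in this ratio beyond counting error, and *Zrsr1* had a lower ratio than *Commd1*, with intervals that do not overlap at either scaling, over the annotated gene or over the covered stretch. With 1 library per cross, a difference between embryos, cultures or libraries cannot be told apart from one between crosses.

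**Figure D5:**
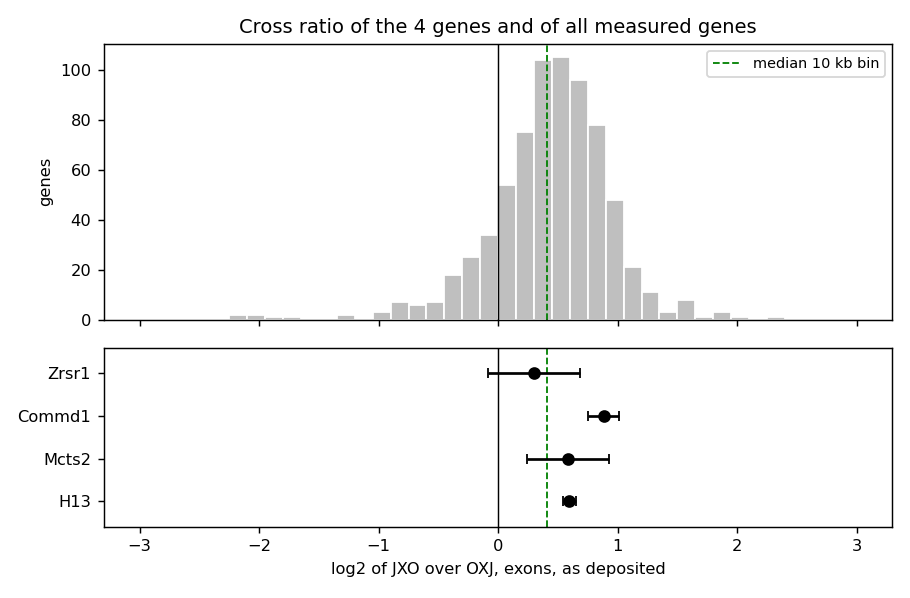
Histogram of the log2 ratio of JXO over OXJ for 717 genes inside the stretches (top) and the ratio of *Zrsr1*, *Commd1*, *Mcts2* and *H13* with exact conditional 95% intervals (bottom). The dashed line is the median 10 kb bin at 0.41, and *Commd1* is the member farthest from it, at 0.88.

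Of 6 genes within 100 kb of the hosts with at least 20 read pairs, 4 were higher in JXO as deposited, as were 84.9% of the 717 genes. With the median bin set equal, 3 of the 6 and 56.1% of the 717 were higher in JXO. *Gm17559* is given above. *Cct4*, which encodes a chaperonin subunit and starts beyond the 5′ end of *Commd1*, had 417 in JXO and 243 in OXJ. *B3gnt2*, whose last exon overlaps the annotated end of *Commd1*, had 56.6 in JXO and 34.1 in OXJ. Around *H13*, *Id1*, an inhibitor of helix-loop-helix factors, had 447 in JXO and 400.1 in OXJ, and *Bcl2l1*, an inhibitor of apoptosis, had 92.2 in JXO and 64.7 in OXJ. *Rem1*, a small GTPase, had 1.99 in JXO and 2.62 in OXJ, the lower level being in JXO. The remaining 15 annotated neighbours had fewer than 20 read pairs over both libraries.

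The libraries hold 5837225 reads in the tracks of JXO (7.61% of the aligned reads) and 5785447 reads in those of OXJ (6.70%), in 618 stretches with 63.7 Mb. Of the fibroblast markers, *Col1a2* (583 in JXO and 388 in OXJ) and *Dcn* (22.9 in JXO and 25.9 in OXJ) lie inside the stretches, 2 of 15. Of 27 markers of blood, endothelial, epithelial, muscle, neural and germ cells, 4 lie inside. These are *Nes* with 340 in JXO and 155 in OXJ, *Sox2* with 1.27 in JXO and 1.22 in OXJ, *Ddx4* with 0.980 in JXO and 4.14 in OXJ, and *Pou5f1* with no read in either. Of 17 annotated genes of the COMMD family and its partners only *Commd1* lies inside the stretches, and of 8 intramembrane aspartyl proteases and their partners only *H13*. Of 9 splicing factors only *Zrsr2* lies inside, and of 5 genes of translation reinitiation none, so the pathways of the 4 genes were not analysed here.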

How the data were processed

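The authors sequenced strand-specific paired-end libraries, 1 each from JXO and OXJ MEFs, and the submitters' processing notes name CASAVA 1.9 and TopHat 1.2.0 with mm9, with up to 10 loci per read. The deposited values are log2 of 1 plus the depth at each base scaled by the authors to 50000000 aligned reads, in 4 tracks. They were turned back into whole reads (largest relative deviation 3.61e-14), and scaled depth was averaged over bases. RNA of the (−) strand stood in the tracks called forward. Stretches of signal were built by bridging gaps of at most 50 kb between covered bases, and genes of GENCODE M1 wholly inside a stretch were measured. Intervals were exact Poisson for levels, Clopper-Pearson for shares and exact conditional for ratios, at 95%, on covered bases counted as read pairs of 200 bases. A spliced read pair can cover more than 1 exon, so intervals for ratios between exons of a gene, which treat them as independent, are approximate. PCR copies were not removed here, so the intervals cover counting error only. Without replicates no test between crosses and no p-value was computed. The intervals were tested only on counts simulated under the model they assume, which cannot check that model on these libraries. Reads of JF1 alleles were aligned to a reference of another strain, which could lower their number.

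The members and gene lists were chosen with earlier results of these data known. Named were the 4 genes, their parent genes, genes within 100 kb of the hosts with at least 20 read pairs, other nested genes, and list members inside the stretches. Alternatives changed the scale, the bases counted, the exons, the flanks and the scaling between libraries. Coding bases alone, the exon shared with *B3gnt2* and the covered stretch of *Zrsr1* were added after seeing the data. No paired fit applies with 1 library per cross. Scripts ran in Python 3.11.15 with scipy 1.17.1, numpy 2.4.6 and pandas 2.3.3, and plots were drawn with matplotlib 3.10.9.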

Additional observations from a re-analysis of the deposited data

How the results depend on the processing

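Of 85 alternatives for 30 values, 27 stayed within the interval of the reported value. A further 10 turned the direction of a ratio whose interval lay to 1 side of equality, and 48 left the interval otherwise. Of these 48, 3 also crossed equality, from a reported ratio whose interval included it, namely the exon ratio of *Commd1* in JXO in 2 settings and *Zrsr1* between the crosses with the bins set equal. The causes were not tested beyond what each choice counts.

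On the geometric scale the level was 2.15 for *Zrsr1* in JXO and 2.04 in OXJ, 2.09 for *Commd1* in JXO and 1.28 in OXJ, and 23.5 for *H13* in JXO and 17.8 in OXJ. Exons after over before were 0.64 for *Commd1* in JXO and 0.61 in OXJ, and 0.83 for *H13* in JXO and 0.90 in OXJ. *Zrsr1* over *Commd1* was 1.03 in JXO and 1.59 in OXJ, and *Mcts2* over *H13* 1.10 in JXO and 0.96 in OXJ. As medians over bases the levels were 0.652 in JXO and 1.16 in OXJ for *Zrsr1*, 0.652 in JXO and 0.579 in OXJ for *Commd1*, and 18.2 in JXO and 13.9 in OXJ for *H13*, and the intron ratio of *H13* was 0.10 in JXO and 0.22 in OXJ. That ratio was not computed for *Commd1*, whose median before *Zrsr1* was 0.

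Over coding bases, chosen after seeing the data, the levels were 9.53 in JXO and 8.11 in OXJ for *Zrsr1*, 237 in JXO and 129 in OXJ for *Commd1*, and 513 in JXO and 320 in OXJ for *H13*. Exons after over before were then 1.71 in JXO and 1.28 in OXJ for *Commd1*, and 1.02 in JXO and 0.99 in OXJ for *H13*. With the exon shared with *B3gnt2*, also chosen after seeing the data, *Commd1* had 1.499 in JXO and 1.27 in OXJ. With exons of the longest coding transcript the ratio was 0.35 in JXO and 0.27 in OXJ for *Commd1*, and 0.27 in JXO and 0.27 in OXJ for *H13*. Leaving out the outermost 100 bases kept every ratio within its interval. Against host exons before the retrogene, *Zrsr1* over *Commd1* in OXJ was 0.20.

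Over the stretch covered in either cross, chosen after seeing the data, *Zrsr1* had 6.16 in JXO and 5.55 in OXJ, *Zrsr1* over *Commd1* was 0.22 in JXO and 0.36 in OXJ, and *Zrsr1* over *Zrsr2* 0.30 in JXO and 0.40 in OXJ.

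Within 5 kb of the retrogene, introns after over before were 0.42 for *Commd1* in OXJ, and 0.28 in JXO and 0.35 in OXJ for *H13*. As a share of covered bases, the strand of the retrogene held 52.0% in JXO and 56.0% in OXJ for *Zrsr1*, and 62.0% in JXO and 73.1% in OXJ for *Mcts2*.

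With the median 10 kb bin set equal, the log2 ratio of JXO over OXJ was -0.11 for *Zrsr1*, 0.47 for *Commd1*, 0.17 for *Mcts2* and 0.18 for *H13*. With equal reads inside the stretches it was 0.70 for *Commd1* and 0.41 for *H13*.

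No paired analysis was possible because there is 1 library per cross. Depth limits the introns of *Commd1*, the antisense signal of both retrogenes and any step at the annotated ends of H13-005 and H13-006.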
